A study of Mus musculus with 16 samples.

Results

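The CXC and CC chemokines described here are the products of 10 mouse genes, Cxcl1, Cxcl2, Cxcl9, Cxcl10, Cxcl12, Cxcl13, Ccl2, Ccl4, Ccl5 and Ccl9. The genes were chosen with earlier results of these data known, and their probe sets were taken by gene symbol alone. They were read by 13 of the 22626 probe sets tested. They make up 10 of the 12393 genes on the array that have a probe set with 1 symbol. Cxcl12, Cxcl13 and Ccl9 had 2 probe sets each and the others 1. All 13 were tested in every comparison, since no filter on low values was applied.

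Liver RNA from male FvB/n mice had been hybridised to 16 single-sample arrays in 2 experiments of 8. In the first experiment all mice carried TTR::Fv2E-PERK, a drug-responsive form of the ER stress sensor PERK made from its kinase domain and placed under the transthyretin promoter, which acts in hepatocytes, in a line described as high-expressing. The drug AP20187 dimerises this fusion protein and so starts the integrated stress response (ISR), in which phosphorylated eIF2α slows general translation. The groups were TTR::Fv2E-PERK AP20187 (4 arrays) and TTR::Fv2E-PERK untreated (4 arrays, mock-injected by the series design). No array came from a mouse that lacked the transgene and received the drug, so effects of AP20187 itself and of the kinase cannot be told apart. In the second experiment the groups were HFD Alb::GC, LFD Alb::GC, HFD wildtype and LFD wildtype, 2 arrays each, with HFD a high fat and LFD a low fat diet. Alb::GC places an active fragment of the eIF2α phosphatase subunit GADD34 under the albumin promoter of hepatocytes, which directs it to hepatocytes and not to other liver cell types. The sources used here do not give age, dose, time after injection or length of feeding.

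Chemokines are small secreted proteins that draw leukocytes along a gradient by way of G-protein-coupled receptors. Those with the glutamate-leucine-arginine motif, Cxcl1 and Cxcl2 among them, attract neutrophils through Cxcr2. Cxcl9 and Cxcl10 are induced by interferons and attract activated T cells through Cxcr3, Ccl2 attracts monocytes through Ccr2, and Cxcl12 and Cxcl13 hold haematopoietic cells and B cells in place. Many of these genes are switched on by NF-kappaB, and in liver they can be made by hepatocytes as well as by Kupffer, stellate and endothelial cells.

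Each value was a deposited ratio around 1 per probe set and array, and the sources used here do not give what it was taken against. A ratio gives no absolute level, so chemokines were not ranked against each other by level, the liver label could not be checked against marker levels, and the experiments were kept on their own scales. The number of arrays limits the precision. Array medians lay between 0.94 and 1.02. The difference of the 3' and 5' probe sets for actin, a measure of RNA integrity, lay between -0.71 and -0.33 on the log2 scale on HFD arrays and between -0.16 and 0.21 on LFD arrays. For Gapdh the ranges were -0.31 to -0.15 on HFD arrays and 0.04 to 0.22 on LFD arrays. RNA integrity therefore moved with diet, and its part in the diet results was not tested. In the TTR::Fv2E-PERK experiment the Gapdh difference was 0.19 in AP20187 replicate 3, against -0.14 to -0.10 in the other 3 AP20187 arrays and -0.06 to -0.01 in untreated arrays, so results are also given without that array. The actin difference was -0.04 to 0.15 on AP20187 arrays, 3 of them at 0.15, and -0.18 to -0.02 on untreated arrays, so this measure moved with AP20187 too, and its part in the AP20187 results was not tested.

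Promoters of 7 of the 10 genes were held by RefSeq (GRCm38.p6), each reaching from 250 bases before the annotated start to 50 after it. None was held for Ccl2, Ccl4 and Ccl5, so these were not searched, though Ccl2 also had a large AP20187 change. The 3 that lay in front of genes with large AP20187 changes, and that of Ccl9, which changed the other way, are shown because the NF-kappaB consensus was found in these 4. Capitals mark matches to the consensus on either strand and, at the first capital stretch of Cxcl10, to an interferon-stimulated response element. The windows are Cxcl1 at chr5:90890995-90891294 on the plus strand, Cxcl2 at chr5:90903649-90903948 on the plus strand, Cxcl10 at chr5:92348840-92349139 on the minus strand and Ccl9 at chr11:83578587-83578886 on the minus strand.
Cxcl1: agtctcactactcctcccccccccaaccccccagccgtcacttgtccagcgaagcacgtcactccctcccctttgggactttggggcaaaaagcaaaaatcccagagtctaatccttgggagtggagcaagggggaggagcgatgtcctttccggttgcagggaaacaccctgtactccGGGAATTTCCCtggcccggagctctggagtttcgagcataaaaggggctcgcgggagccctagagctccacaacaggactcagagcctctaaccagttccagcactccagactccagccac
Cxcl2: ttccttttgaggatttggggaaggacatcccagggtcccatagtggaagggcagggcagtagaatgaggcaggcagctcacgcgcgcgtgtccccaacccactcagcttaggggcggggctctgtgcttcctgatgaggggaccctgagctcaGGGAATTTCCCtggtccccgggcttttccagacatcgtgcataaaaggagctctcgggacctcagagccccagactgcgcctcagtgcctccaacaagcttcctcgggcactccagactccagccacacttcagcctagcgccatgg
Cxcl10: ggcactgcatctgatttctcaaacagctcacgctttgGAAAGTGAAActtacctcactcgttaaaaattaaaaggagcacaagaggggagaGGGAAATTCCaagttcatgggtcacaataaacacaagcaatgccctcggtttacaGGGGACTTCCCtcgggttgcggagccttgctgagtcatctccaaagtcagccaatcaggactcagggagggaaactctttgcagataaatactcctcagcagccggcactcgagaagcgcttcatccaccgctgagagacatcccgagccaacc
Ccl9: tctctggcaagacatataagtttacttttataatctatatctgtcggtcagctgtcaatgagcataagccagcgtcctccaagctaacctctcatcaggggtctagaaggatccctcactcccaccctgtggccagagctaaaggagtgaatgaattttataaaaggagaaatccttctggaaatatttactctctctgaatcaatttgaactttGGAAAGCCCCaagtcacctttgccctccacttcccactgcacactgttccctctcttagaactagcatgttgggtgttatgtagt

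Cxcl1 and Cxcl2 are neighbouring coding genes on chromosome 5, and the same 11 letters, GGGAATTTCCC, began at position -71 in Cxcl1 and at position -97 in Cxcl2. Over the whole windows the 2 promoters were identical at 67% of 261 aligned positions, against 51.8% to 66% for the other pairs. Cxcl10 held 2 NF-kappaB stretches, starting at -159 and at -104, and Ccl9 held 1 on the opposite strand between -35 and -26. The consensus was present in 8.46% of all 32851 promoters of the same length when both strands were searched and overlapping matches were counted once per promoter. The interferon-stimulated response element, searched as a pair of GAAA with any 2 bases between them, was in 1 of the 7 promoters, Cxcl10 from -213 to -204, and in 3.44% of all. A C/EBP-ATF response element, the composite sequence read by ATF4 and written TGATGNAA, was in none of the 7 windows and in 3.97% of all. No match says only that these letters are not within these 300 bases.

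The first comparison asks what activation of Fv2E-PERK does to hepatic chemokine transcripts. Cxcl1, Cxcl2, Cxcl10, Ccl2, Cxcl9 and Cxcl13 rose with AP20187, the first 4 by 3.73 to 4.49 on the log2 scale, while Cxcl12 and Ccl9 fell. Of the 13 probe sets, 7 were higher and 4 lower at an adjusted p below 0.05 in limma, and 2 passed in neither direction. Over all probe sets tested 13.7% were higher and 20.4% lower. The median change was 0.72 over the 13 and -0.13 over all. Changes are differences of log2(ratio + 0.05) with standard errors (SE), n = 4 arrays a group, with p adjusted by Benjamini-Hochberg across all 22626. The labels do not say that each array is a separate animal, so p-values rest on the spread from array to array, which may be technical. In bulk RNA fewer cells of a type and less RNA per cell cannot be told apart.

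Cxcl1, a neutrophil attractant, had ratios of 9.08, 7.25, 3.03 and 5.11 on the AP20187 arrays, against 0.29, 0.39, 0.24 and 0.27 on the untreated arrays. Every AP20187 array lay above every untreated array, and the change was 4.05 ± 0.32 (SE, adjusted p = 0.000109). Cxcl2, its close relative, had ratios of 2.96, 2.67, 1.04 and 1.44 on AP20187 arrays and 0.04, 0.04, 0.03 and 0.03 on untreated arrays. The untreated values sit near the smallest deposited value of 0.01 and at the size of the offset, so the change of 4.49 ± 0.39 (adjusted p = 0.000144) understates the ratio between the groups. Over the offsets, scalings and left-out arrays tried, the Cxcl2 change ranged from 3.14 to 5.38.

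Cxcl10, an interferon-inducible T-cell attractant, had ratios of 2.65, 2.47, 1.63 and 1.74 on AP20187 arrays and 0.06, 0.09, 0.05 and 0.12 on untreated arrays. The groups were far apart, with a change of 4.06 ± 0.29 (adjusted p = 9.97e-05) that ranged from 3.03 to 4.60 over the settings tried. Cxcl9, which shares the receptor Cxcr3 with Cxcl10, moved less. Its ratios were 1.73, 1.55, 1.22 and 1.54 on AP20187 arrays and 0.64, 0.65, 0.81 and 0.72 on untreated arrays, a change of 1.04 ± 0.13 (adjusted p = 0.000633). Ccl2, the monocyte attractant, had ratios of 2.48, 2.53, 1.41 and 2.06 on AP20187 arrays and 0.13, 0.14, 0.19 and 0.03 on untreated arrays. Its change was 3.73 ± 0.39 (adjusted p = 0.000304), and over the settings it ranged from 2.84 to 4.19. Untreated values of Cxcl10 and Ccl2 also lay near the offset, so the size of these changes depends on it. AP20187 replicate 3 was the lowest of the 4 treated arrays for each of these 5 genes. Without it Cxcl1 changed by 4.35, Cxcl2 by 4.76, Cxcl10 by 4.18, Ccl2 by 3.90 and Cxcl9 by 1.14, all past the threshold.

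Cxcl13, the B-cell attractant of lymphoid follicles, was read by 2 probe sets. The first, 1417851_at, had ratios of 0.77, 1.06, 1.55 and 1.27 on AP20187 arrays and 0.58, 0.68, 0.31 and 0.69 on untreated arrays (0.99 ± 0.30, adjusted p = 0.0335). The second, 1448859_at, had 1.12, 1.23, 1.17 and 1 on AP20187 arrays and 0.80, 0.78, 0.80 and 0.39 on untreated arrays (0.72 ± 0.23, adjusted p = 0.0433). Neither pair of groups overlapped, but the calls were close to the threshold. Without AP20187 replicate 3 both were lost, at adjusted p = 0.0827 and 0.0877. Leaving out AP20187 replicate 2 or 4, or untreated replicate 1, also ended both calls, and the second was lost as well without AP20187 replicate 1 or untreated replicate 2 or 3, with adjusted p between 0.051 and 0.108 over these fits.

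Cxcl12, the stromal ligand of Cxcr4, fell in both of its probe sets. Ratios of 1417574_at were 1, 0.87, 1 and 1 on AP20187 arrays and 1.52, 1.84, 1.94 and 2.13 on untreated arrays, a change of -0.90 ± 0.11 (adjusted p = 0.000704). Ratios of 1448823_at were 1.02, 0.85, 0.98 and 1.08 on AP20187 arrays and 1.96, 1.96, 1.78 and 2.24 on untreated arrays, a change of -0.98 ± 0.10 (adjusted p = 0.00034). Both probe sets thus gave the same direction with no overlap. Markers of stellate cells, a stromal cell type of the liver, were lower in 9 of 13 probe sets, and their summed ratio was 10.6 to 11.8 on AP20187 arrays against 21.1 to 27.5 on untreated arrays. Endothelial markers were lower in 3 of 11, with sums of 9.67 to 11 on AP20187 arrays against 12 to 14.5 on untreated arrays. Over all probe sets 20.4% were lower. The part of these cell types in the fall of Cxcl12 was not tested.

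Ccl9, a myeloid attractant of rodents, also fell in both probe sets. Ratios of 1417936_at were 1.32, 1.02, 0.87 and 0.98 on AP20187 arrays and 2.45, 2.13, 1.97 and 2.24 on untreated arrays, a change of -1.05 ± 0.14 (adjusted p = 0.000817). Ratios of 1448898_at were 1.06, 0.94, 0.86 and 1.08 on AP20187 arrays and 2.44, 2.22, 1.98 and 1.85 on untreated arrays, a change of -1.07 ± 0.12 (adjusted p = 0.000387). Ccl4 and Ccl5, attractants of T cells and monocytes, did not pass the test. Ccl4 had ratios of 1.04, 0.94, 1.43 and 0.80 on AP20187 arrays and 0.98, 1.29, 0.98 and 1.12 on untreated arrays, with a change of -0.07 ± 0.18 (adjusted p = 0.798). Ccl5 had 0.79, 1.45, 0.69 and 1.44 on AP20187 arrays and 0.96, 0.97, 1.11 and 0.92 on untreated arrays, with a change of 0.07 ± 0.25 (adjusted p = 0.876). These were the 2 chemokine probe sets whose groups overlapped. Over all probe sets the AP20187 group lay wholly above untreated in 14.5% and wholly below it in 20.5%.

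**Figure D1:**
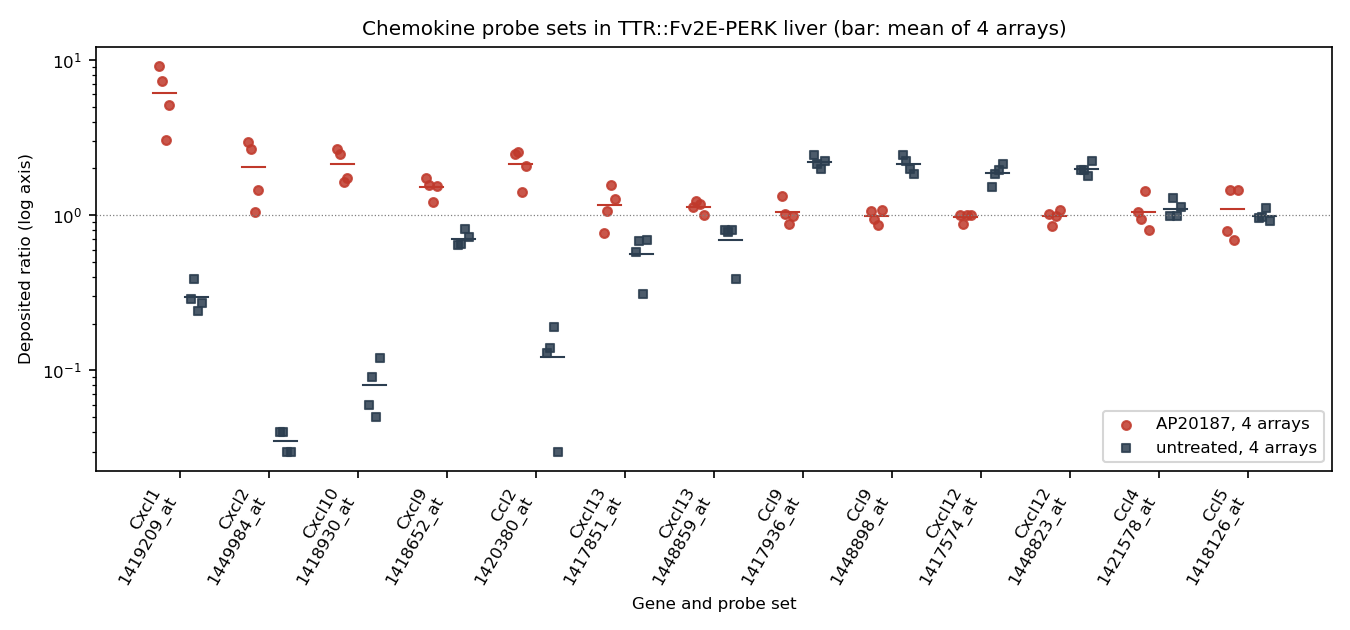
Deposited ratio (log axis) of the 13 chemokine probe sets in TTR::Fv2E-PERK liver, with 4 AP20187 arrays (circles) left of 4 untreated arrays (squares) and the mean as a bar. Cxcl1, Cxcl2, Cxcl10 and Ccl2 show the widest gaps, Ccl9 and Cxcl12 lie lower with AP20187, and Ccl4 and Ccl5 overlap.

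Markers of leukocytes gave the following values beside these changes. Kupffer cell and macrophage markers were higher in 1 of 16 probe sets, Cd163 (0.88 ± 0.20, adjusted p = 0.00988), and lower in 8, with summed ratios of 12.8 to 16.7 on AP20187 arrays and 18.4 to 19.5 on untreated arrays. None of 8 neutrophil marker probe sets passed in limma, with 3 at an unadjusted p below 0.05, and the sums were 5.87 to 7.02 on AP20187 arrays and 7.06 to 9.48 on untreated arrays. Without S100a8 and S100a9 the neutrophil sums of the 2 groups overlapped, at 4.71 to 5.30 on AP20187 arrays and 4.94 to 7.76 on untreated arrays. For comparison with the counts in this paragraph, 13.7% of all probe sets were called higher and 20.4% lower. Lymphocyte markers were lower in 2 of 15 probe sets, with sums of 9.97 to 12.4 on AP20187 arrays and 10.7 to 19.3 on untreated arrays. Hepatocyte markers were lower in 12 of 13, with sums of 11 to 13.7 on AP20187 arrays and 22.9 to 28.8 on untreated arrays. No marker stood at the smallest value on any array, and the part of cell composition in the chemokine changes was not tested.

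Of the 31 probe sets of the other chemokines on the array (24 genes) 4 were higher and 3 lower with AP20187, against 13.7% and 20.4% over all probe sets, with a median of -0.35. Cxcl11, the third Cxcr3 ligand, had ratios of 1.21, 1.15, 0.76 and 1.12 on AP20187 arrays and 0.37, 0.45, 0.41 and 0.46 on untreated arrays (1.22 ± 0.20, adjusted p = 0.00237). Cxcr3 ligands were thus called higher in all 3 genes, while the change of the receptor transcript Cxcr3 was 0.04 ± 0.15 (adjusted p = 0.886). Ccl6, which lies next to Ccl9, was called higher in 1 of its 2 probe sets (0.65 ± 0.15, adjusted p = 0.00937), and the other was not called (0.23 ± 0.24, adjusted p = 0.513). Ccl25, a ligand of Ccr9, fell by 1.11 (SE 0.24, adjusted p = 0.00843), and Ccl27a was lower at -0.68 ± 0.17 (adjusted p = 0.0158).

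Among the 24 probe sets of chemokine receptors (17 genes) none was higher and 3 were lower, against 13.7% and 20.4% over all probe sets. Of the 3 Ccr9 probe sets 2 were called, at -2.39 ± 0.55 and -1.70 ± 0.43 (adjusted p = 0.0112 and 0.0168), and the third was not (-1.21 ± 0.83, adjusted p = 0.32). Cx3cr1, a receptor of monocytes and macrophages, was called in 1 of 2 probe sets (-1.12 ± 0.27, adjusted p = 0.0133), and the other gave -1.83 ± 0.62 (adjusted p = 0.0533). Receptors of the ligands with the largest rises gave no call. Cxcr2, the receptor of Cxcl1 and Cxcl2, changed by 0.35 ± 0.50 (adjusted p = 0.643), and the 3 Ccr2 probe sets by -0.24 to 0.62 (adjusted p = 0.524 to 0.664). The atypical receptors bind chemokines without driving migration, and 2 of their 6 probe sets were higher and none lower. Ackr3, which scavenges Cxcl12, had ratios of 2.54, 3.50, 2.18 and 3.07 on AP20187 arrays and 0.58, 0.48, 1.21 and 0.79 on untreated arrays (1.87 ± 0.28, adjusted p = 0.00139). The Cxcl12 transcript fell and that of its scavenger rose in the same samples.

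Genes of the NF-kappaB pathway and its textbook targets were higher in 19 of 32 probe sets (14 of 18 genes) and lower in none, with a median of 0.97. Over all probe sets 13.7% were higher and 20.4% lower, with a median of -0.13. Relb, a subunit of NF-kappaB, had ratios of 1, 1.06, 0.91 and 1 on AP20187 arrays and 0.06, 0.10, 0.05 and 0.08 on untreated arrays (3.10 ± 0.27, adjusted p = 0.00015). Icam1, an adhesion molecule for leukocytes, had 1.29, 1.40, 0.76 and 1.3 on AP20187 arrays and 0.07, 0.10, 0.08 and 0.07 on untreated arrays (3.22 ± 0.30, adjusted p = 0.000187). Bcl3, a nuclear member of the IkappaB family (2.44 ± 0.13, adjusted p = 6.58e-05), and Nfkbia, which holds NF-kappaB in the cytoplasm (1.76 ± 0.12, adjusted p = 9.83e-05), rose as well. Factors that act on the decay of chemokine mRNA were higher in 6 of 10 probe sets and lower in none, among them Zfp36l2 (2.03 ± 0.08, adjusted p = 4.56e-05) and Zfp36 (1.21 ± 0.08, adjusted p = 9.83e-05), which promote decay.

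Of 9 probe sets of cytokines known to induce chemokines, Il1b was higher (0.62 ± 0.16, adjusted p = 0.0179), Il18 was lower (-0.70 ± 0.10, adjusted p = 0.00128) and 7 did not pass, with changes over the list of -1.93 to 0.85 and 4 at an unadjusted p below 0.05. Of 21 interferon response probe sets 4 were higher and 4 lower, near the 13.7% and 20.4% over all probe sets. Irf1, an inducer of Cxcl9 and Cxcl10, rose by 1.85 ± 0.14 (adjusted p = 9.97e-05) and Mx2 by 1.5 ± 0.24 (adjusted p = 0.00206), whereas the interferon-inducible GTPase Iigp1 changed by -0.92 ± 0.08 (adjusted p = 0.000127) in one probe set and by -0.82 ± 0.13 (adjusted p = 0.00165) in the other. These lists are described by counts and medians, and nothing particular to any of them was tested.

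Over the 8 TTR::Fv2E-PERK arrays the genes whose log2 ratios ran most like each chemokine were found by Pearson's r, as a description over arrays that share the contrast between the groups. Cxcl1 was most like Zfp131 (r = 0.997), Cxcl2 (0.997) and Ptpn12 (0.996), and Cxcl2 most like Parp16 (0.998), Gadd45b (0.997) and Cxcl1 (0.997). Each of these neighbouring genes was thus among the 3 nearest of the other. Cxcl10 was most like Spry1 (0.998), Saa3 (0.997) and Spata5 (0.996), and Ccl2 most like Bmp2k (0.995), Ier3 (0.994) and Btg2 (0.994). Cxcl9 was nearest to Enc1 (0.996), Cxcl13 to Ehd1 (0.986), Ccl9 to Dlat (0.995) and Cxcl12 to Cox5a (0.998).

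The second experiment asks how chemokine transcripts respond to HFD, and whether dampened eIF2α phosphorylation in hepatocytes alters the response. Cxcl1 rose with HFD in both genotypes, Ccl9 and 1 probe set of Cxcl12 fell with HFD in wildtype, and no other chemokine passed. With HFD in Alb::GC, 1 of the 13 probe sets was higher and none lower in limma, with 3 at an unadjusted p below 0.05, against 4.64% higher and 2.13% lower over all probe sets. With HFD in wildtype, 1 was higher and 3 lower, against 7.97% and 6.63% over all. Averaged over genotypes, 1 was higher and 3 lower, against 13.5% and 14% over all. The medians over the 13 were -0.26 in Alb::GC and -0.22 in wildtype, and over all probe sets -0.02 and -0.11.

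Cxcl1 had ratios of 1.84 and 1.99 for HFD Alb::GC, 0.27 and 0.34 for LFD Alb::GC, 5.35 and 6.43 for HFD wildtype, and 0.37 and 0.37 for LFD wildtype. Both HFD groups lay above both LFD groups, and the HFD Alb::GC arrays lay between the HFD wildtype and the LFD arrays. The change with HFD was 2.47 ± 0.16 in Alb::GC (SE, n = 2 arrays a group, adjusted p = 0.00495) and 3.82 ± 0.16 in wildtype (adjusted p = 0.002). Averaged over genotypes the change was 3.15 ± 0.11 (adjusted p = 0.000459). The call in Alb::GC was lost without HFD Alb::GC replicate 2 (2.42, adjusted p = 0.0507), and the 2 other calls were kept in every setting tried.

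Ccl9 gave ratios at 1417936_at of 0.88 and 0.80 for HFD Alb::GC, 0.96 and 1.16 for LFD Alb::GC, 0.37 and 0.38 for HFD wildtype, and 1.26 and 1.09 for LFD wildtype. At 1448898_at they were 0.96 and 1.01 for HFD Alb::GC, 1.24 and 1.14 for LFD Alb::GC, 0.38 and 0.46 for HFD wildtype, and 0.96 and 1.11 for LFD wildtype. At both probe sets the HFD wildtype arrays were the lowest of the 8. With HFD in Alb::GC the changes were -0.31 ± 0.22 (adjusted p = 0.396) and -0.26 ± 0.20 (adjusted p = 0.441). In wildtype they were -1.52 ± 0.22 (adjusted p = 0.0135) and -1.21 ± 0.20 (adjusted p = 0.0185). The wildtype calls were lost at both probe sets without either HFD wildtype array, and at 1448898_at also without LFD wildtype replicate 2, with adjusted p of 0.0609 to 0.0782 and changes of -1.54 to -1.09.

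Cxcl12 at 1417574_at had ratios of 0.61 and 0.68 for HFD Alb::GC, 1.18 and 1.13 for LFD Alb::GC, 0.53 and 0.60 for HFD wildtype, and 1.11 and 1.07 for LFD wildtype. HFD arrays lay below LFD arrays in both genotypes, with changes of -0.80 ± 0.20 in Alb::GC (adjusted p = 0.0658) and -0.89 ± 0.20 in wildtype (adjusted p = 0.0357). Averaged over genotypes the change was -0.84 ± 0.14 (adjusted p = 0.0105). The second Cxcl12 probe set ran the same way with smaller changes that were not called. Its Alb::GC ratios were 0.88 and 0.97 on HFD and 1.23 and 0.92 on LFD. Its wildtype ratios were 0.86 and 0.83 on HFD and 1.02 and 0.98 on LFD. Its changes were -0.19 ± 0.19 (adjusted p = 0.533) in Alb::GC and -0.23 ± 0.19 (adjusted p = 0.424) in wildtype. The wildtype call at 1417574_at was lost without any 1 of the 8 diet arrays (changes of -0.97 to -0.81, adjusted p = 0.0564 to 0.139).

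The chemokines that rose with AP20187 beside Cxcl1 passed no test with HFD. Cxcl2 had ratios of 1.03 and 1.77 for HFD Alb::GC, 0.88 and 0.52 for LFD Alb::GC, 1.26 and 0.97 for HFD wildtype, and 0.83 and 1.05 for LFD wildtype. Its change was 0.95 ± 0.35 in Alb::GC (adjusted p = 0.143) and 0.23 ± 0.35 in wildtype (adjusted p = 0.673). Cxcl10 lay between 0.51 and 1.42 on all 8 arrays, and its change was 0.12 ± 0.31 in Alb::GC (adjusted p = 0.826) and 0.37 ± 0.31 in wildtype (adjusted p = 0.437). Ccl2 had the widest spread, with 0.08 and 1.03 for HFD Alb::GC, 0.25 and 0.64 for LFD Alb::GC, 0.34 and 1.09 for HFD wildtype, and 0.52 and 0.97 for LFD wildtype. Its SE of 1.10 leaves changes of several-fold undetectable with these arrays.

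Cxcl9 had ratios of 1.16 and 0.43 for HFD Alb::GC, 1.09 and 2.01 for LFD Alb::GC, 1.12 and 0.91 for HFD wildtype, and 1.53 and 2.13 for LFD wildtype. Its HFD changes were -1.01 ± 0.48 in Alb::GC (adjusted p = 0.231) and -0.81 ± 0.48 in wildtype (adjusted p = 0.29). The Cxcl13 probe sets pointed opposite ways in wildtype, 0.86 ± 0.38 (adjusted p = 0.166) and -0.51 ± 0.37 (adjusted p = 0.373). Ccl4 changed by 0.15 ± 0.22 (adjusted p = 0.688) in Alb::GC and 0.04 ± 0.22 (adjusted p = 0.915) in wildtype. For Ccl5 the values were -0.53 ± 0.31 (adjusted p = 0.307) in Alb::GC and -0.22 ± 0.31 (adjusted p = 0.657) in wildtype.

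**Figure D2:**
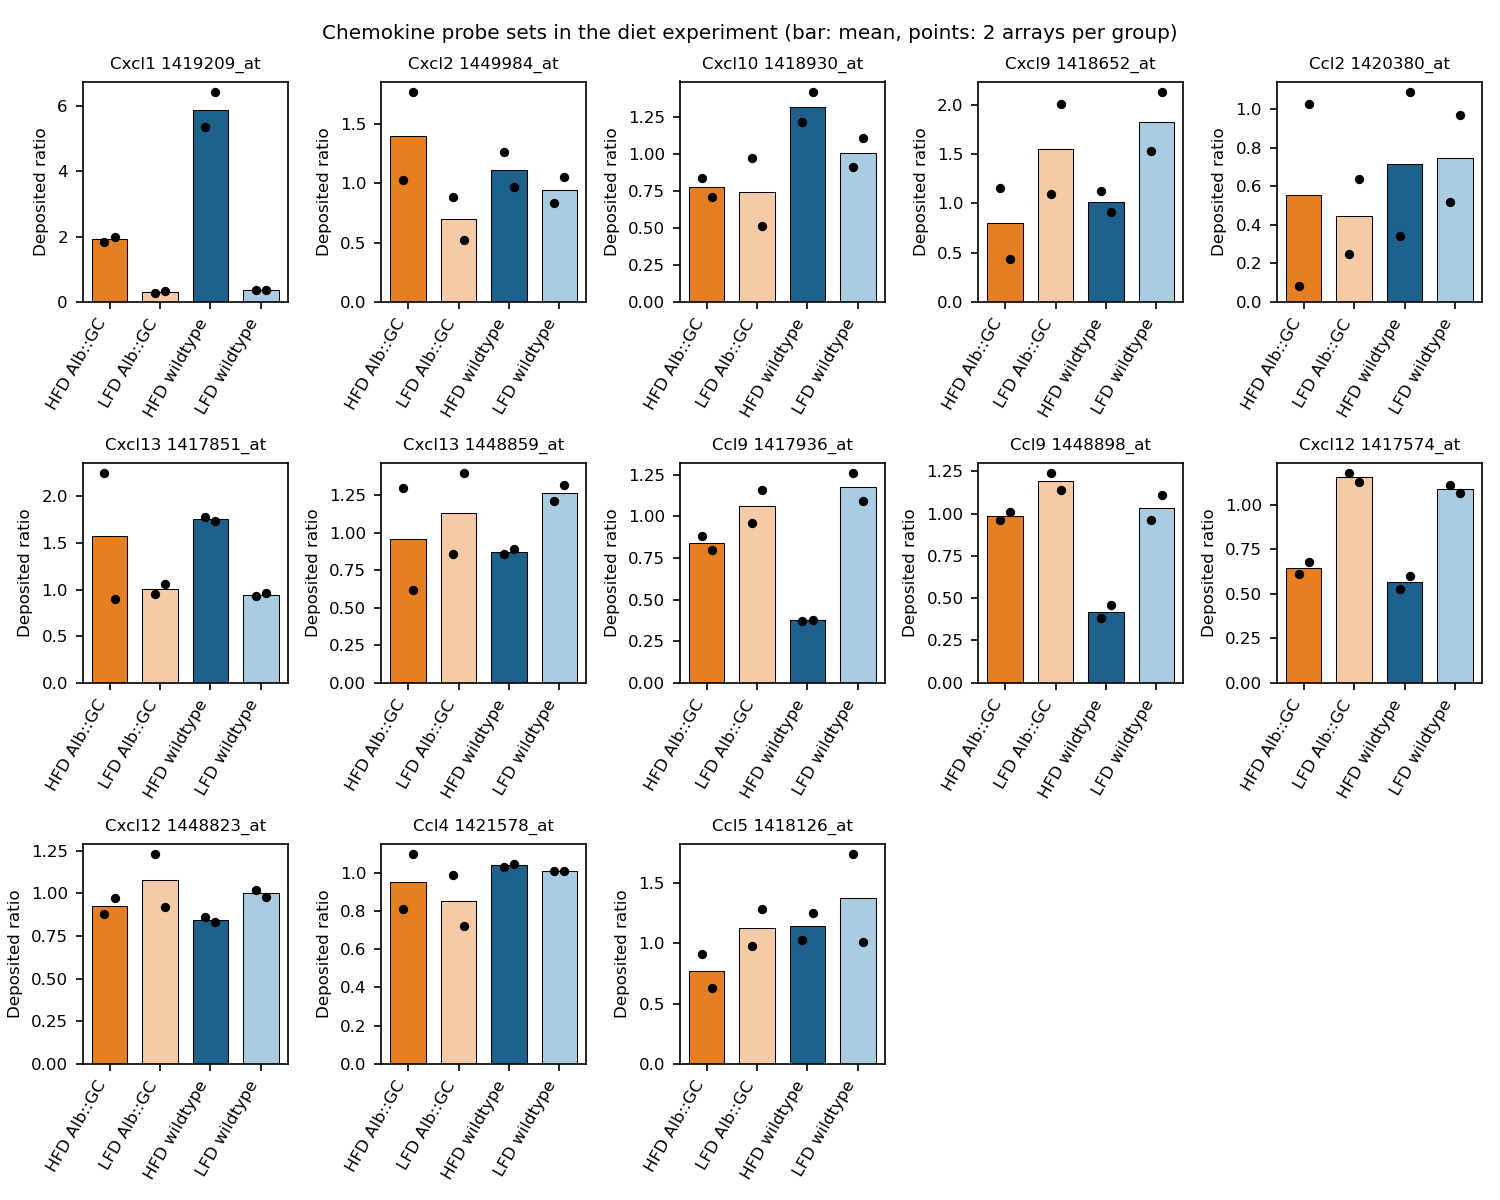
Deposited ratio (linear axis from 0) of the 13 chemokine probe sets in the 4 diet groups, with the mean of 2 arrays as a bar and the arrays as points. Cxcl1 is high in both HFD groups and highest in HFD wildtype, and both Ccl9 probe sets are lowest in HFD wildtype.

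**Figure D3:**
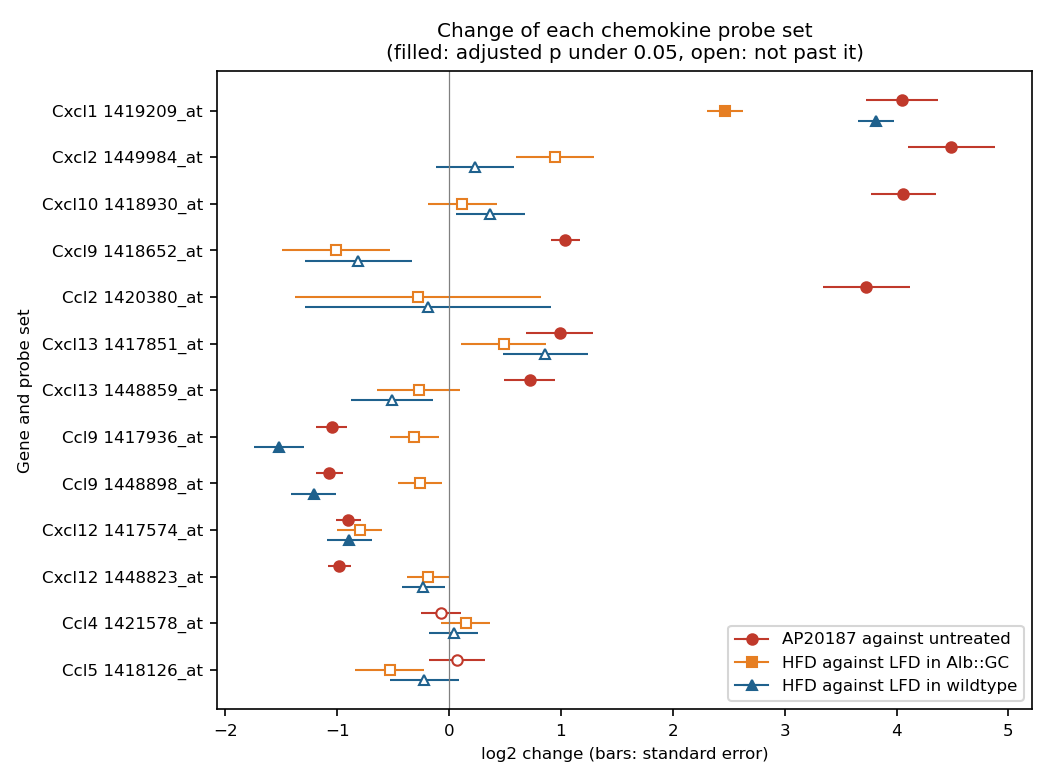
log2 change of each chemokine probe set with its SE for AP20187 against untreated (circles), HFD against LFD in Alb::GC (squares) and HFD against LFD in wildtype (triangles), filled where the adjusted p was below 0.05. Cxcl1 is the probe set filled to the right of 0 in all 3, and Ccl9 and Cxcl12 1417574_at are filled to the left of 0 for AP20187 and for HFD in wildtype.

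Between genotypes on HFD, Cxcl1 was lower in Alb::GC than in wildtype by limma (-1.59 ± 0.16, adjusted p = 0.044). It was 1 of 22 probe sets called lower, 0.0972% of all, and 8 were called higher, 0.0354% of all. The call did not hold in most settings. Leaving out any 1 of the 8 diet arrays gave changes of -1.72 to -1.46 with adjusted p between 0.0771 and 0.25, and quantile normalization gave -1.18 (adjusted p = 0.167). Ccl9 was not called, with 1.06 ± 0.22 (adjusted p = 0.154) and 1.14 ± 0.20 (adjusted p = 0.109). Between genotypes on LFD no chemokine was called, with none at an unadjusted p below 0.05 in limma and 0% called over all probe sets, and the Cxcl1 change was -0.25 ± 0.16 (adjusted p = 0.632).

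The difference of the HFD change between genotypes, Alb::GC minus wildtype, was called for none of the 22626 probe sets in limma, of which 2517 had an unadjusted p below 0.05. Of the 13 chemokine probe sets 3 did, Cxcl1 and both of Ccl9. For Cxcl1 the difference was -1.34 ± 0.23 (adjusted p = 0.142), and for Ccl9 it was 1.21 ± 0.31 (adjusted p = 0.271) and 0.95 ± 0.29 (adjusted p = 0.332). The HFD changes of these chemokines were therefore not shown to differ between Alb::GC and wildtype.

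Of the 31 probe sets of the other chemokines none passed with HFD in Alb::GC in limma, where 6 had an unadjusted p below 0.05. In wildtype 3 were higher and 2 lower, near the 7.97% and 6.63% over all probe sets. Ppbp, a platelet chemokine that gives rise to a Cxcr2 ligand, had ratios of 1.05 and 0.75 for HFD Alb::GC, 0.76 and 0.95 for LFD Alb::GC, 3.87 and 4.60 for HFD wildtype, and 1.47 and 1.15 for LFD wildtype. It was high in the HFD wildtype arrays, with a change of 0.06 ± 0.23 in Alb::GC (adjusted p = 0.889) and 1.66 ± 0.23 in wildtype (adjusted p = 0.0117). Between genotypes on HFD it was called lower in Alb::GC (-2.19 ± 0.23, adjusted p = 0.044). Like that of Cxcl1, this call was not kept under quantile normalization, where 0 probe sets were called in either direction. It was also lost when any diet array was left out. The difference of the HFD changes did not pass (-1.60 ± 0.32, adjusted p = 0.192). Pf4, the other platelet chemokine, rose with HFD in wildtype by 0.78 ± 0.19 (adjusted p = 0.0436), while Cxcl17 (-1.78 ± 0.31, adjusted p = 0.0206) and Ccl28 (-0.94 ± 0.24, adjusted p = 0.0472) were lower.

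Of 8 neutrophil marker probe sets 4 were higher with HFD in wildtype, while in Alb::GC none was higher and 1, Mpo, was lower (-1.07 ± 0.20, adjusted p = 0.0359). Over all probe sets 7.97% were higher in wildtype and 2.13% lower in Alb::GC. Averaged over genotypes 1 of the 8 was higher and 2 were lower, against 13.5% and 14% over all. The 4 in wildtype were S100a8, S100a9, the receptor Csf3r (1.59 ± 0.37, adjusted p = 0.0403) and the granule protein Ngp (0.74 ± 0.18, adjusted p = 0.045). Csf3r was not higher in HFD wildtype than in both Alb::GC groups. Its mean ratio was 0.43 in LFD wildtype, 1.43 in HFD wildtype, 1.44 in LFD Alb::GC and 1.35 in HFD Alb::GC. Camp, another granule protein, ran the other way and was 1 of the 2 called lower averaged over genotypes (-1.65 ± 0.29, adjusted p = 0.0125). It was not called in Alb::GC (-1.81 ± 0.41, adjusted p = 0.0546) or in wildtype (-1.49 ± 0.41, adjusted p = 0.0598). The neutrophil marker S100a8 had ratios of 0.83 and 0.34 for HFD Alb::GC, 1.01 and 1.16 for LFD Alb::GC, 5.40 and 4.60 for HFD wildtype, and 0.36 and 0.92 for LFD wildtype. Its HFD change was -0.95 ± 0.50 in Alb::GC (adjusted p = 0.268) and 3 ± 0.50 in wildtype (adjusted p = 0.0184). For its partner S100a9 the changes were -0.72 ± 0.36 (adjusted p = 0.253) in Alb::GC and 2.48 ± 0.36 (adjusted p = 0.0137) in wildtype. Differences between genotypes in the HFD change did not pass for either (adjusted p = 0.153 and 0.142). Summed ratios of the 8 markers were 5.12 to 6.52 for HFD Alb::GC, 8.17 to 8.92 for LFD Alb::GC, 13.9 to 17.2 for HFD wildtype and 6.36 to 7.75 for LFD wildtype, with none at the smallest value. S100a8 and S100a9 made up much of the HFD wildtype sum, and without them the sums were 4.35 to 4.73 for HFD Alb::GC, 6.12 to 6.61 for LFD Alb::GC, 5.99 to 7.28 for HFD wildtype and 5.44 to 6.07 for LFD wildtype. With HFD in Alb::GC, Cxcl1 was called higher, and of the 8 neutrophil markers only Mpo was called, as lower. The part of neutrophils in the Cxcl1 and Ppbp values was not tested in either genotype.

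**Figure D4:**
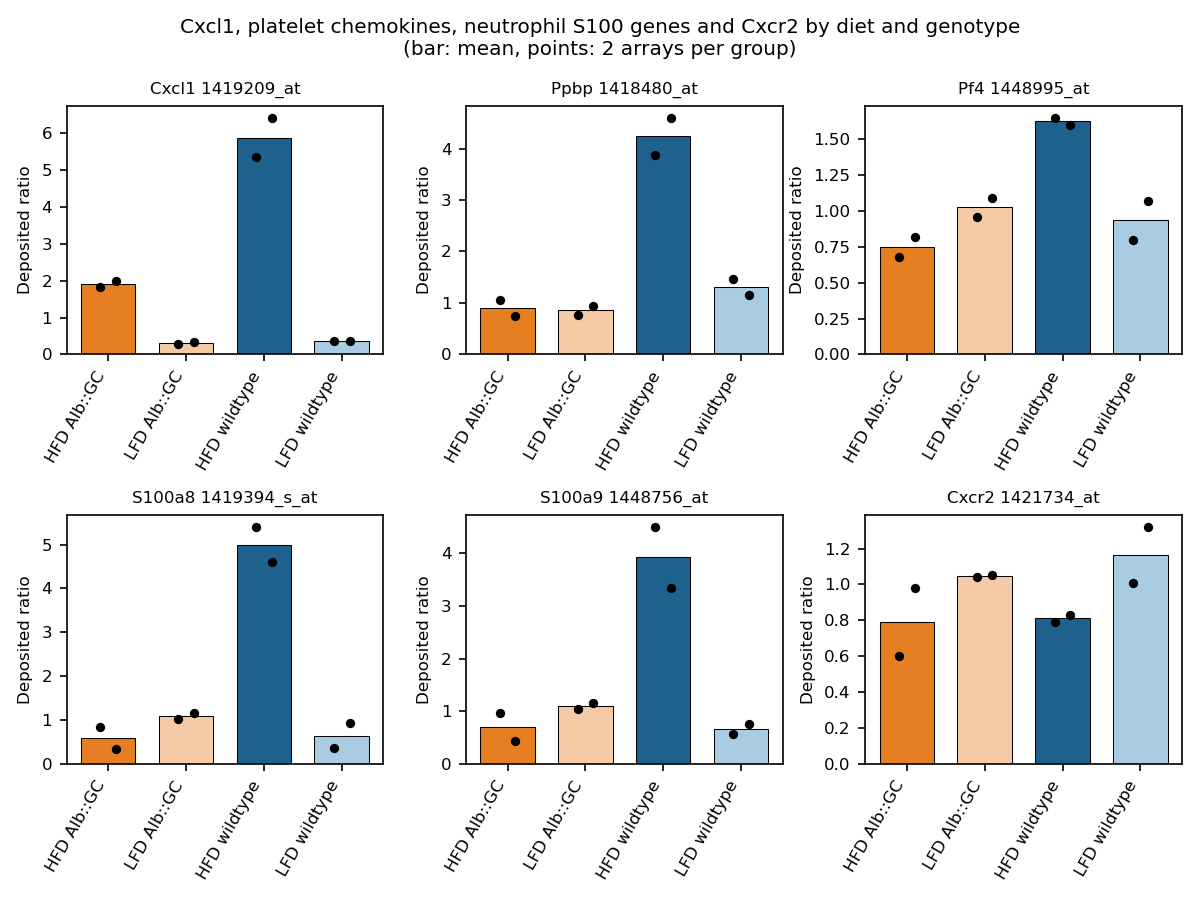
Deposited ratio (linear axes from 0) of Cxcl1, the platelet chemokines Ppbp and Pf4, the neutrophil genes S100a8 and S100a9 and the receptor Cxcr2 in the 4 diet groups, with the mean of 2 arrays as a bar and the arrays as points. All but Cxcr2 are highest in HFD wildtype, and of the 6 genes Cxcl1 alone has both HFD Alb::GC arrays above both LFD Alb::GC arrays.

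Of the 24 receptor probe sets 1 was higher and 1 lower with HFD in Alb::GC, and 2 were higher and none lower in wildtype. Over all probe sets 4.64% were higher and 2.13% lower in Alb::GC, and 7.97% and 6.63% in wildtype. Ccr9 at 1421920_a_at was called higher in Alb::GC (3.02 ± 0.45, adjusted p = 0.0213) and in wildtype (2.08 ± 0.45, adjusted p = 0.0335), and lower with AP20187. The other 2 Ccr9 probe sets were not called with HFD, at 0.37 and -0.99 in Alb::GC (adjusted p = 0.776 and 0.0922) and 1.37 and -0.23 in wildtype (adjusted p = 0.25 and 0.619). Ccr3, a receptor of eosinophils, rose in wildtype (1.80 ± 0.32, adjusted p = 0.0217), and Ccr4, a T-cell receptor for chemokines, was lower in Alb::GC (-1.27 ± 0.27, adjusted p = 0.0472). Cxcr2 changed by -0.49 ± 0.26 in wildtype (adjusted p = 0.243). Ccrl2, an atypical receptor, fell with HFD in Alb::GC (-3.25 ± 0.51, adjusted p = 0.0249) and in wildtype (-2.19 ± 0.51, adjusted p = 0.0398), and rose with AP20187 (2.45 ± 0.62, adjusted p = 0.0171). The Ccrl2 changes ran opposite ways in the 2 experiments, which share no array.

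The NF-kappaB list had 1 probe set higher and none lower of 32 with HFD in Alb::GC, and 5 higher and 1 lower in wildtype. Over all probe sets 4.64% were higher and 2.13% lower in Alb::GC, and 7.97% and 6.63% in wildtype. Nfkb2 at 1425902_a_at had ratios of 3.35 and 4.66 for HFD Alb::GC, 0.63 and 0.64 for LFD Alb::GC, 6.33 and 6.71 for HFD wildtype, and 0.50 and 0.60 for LFD wildtype. Like Cxcl1 it was high in both HFD groups, with changes of 2.55 ± 0.22 in Alb::GC (adjusted p = 0.00754) and 3.46 ± 0.22 in wildtype (adjusted p = 0.00314). In wildtype Vcam1, an adhesion molecule (1.38 ± 0.21, adjusted p = 0.0141), and Nfkbiz, a nuclear IkappaB protein (1.72 ± 0.29, adjusted p = 0.019), rose as well. The 1 lower was a probe set of the kinase Ikbkb (-2.56 ± 0.32, adjusted p = 0.00977), 1 of 4 for that gene, and the other 3 were not called. The other Nfkb2 probe set was not called (-0.06 ± 0.22, adjusted p = 0.896, in Alb::GC and 0.20 ± 0.22, adjusted p = 0.569, in wildtype). Relb, which rose with AP20187, was not called with HFD (1.76 ± 0.66, adjusted p = 0.15, in Alb::GC and 0.36 ± 0.66, adjusted p = 0.732, in wildtype). Factors of chemokine mRNA decay were higher with HFD in 2 of 10 probe sets in each genotype and lower in none. They were Zc3h12a (1.82 ± 0.14, adjusted p = 0.00651, in Alb::GC and 1.02 ± 0.14, adjusted p = 0.0119, in wildtype) and Zfp36l1 at 1422528_a_at (0.64 ± 0.13, adjusted p = 0.0446, in Alb::GC and 1.38 ± 0.13, adjusted p = 0.00601, in wildtype). The other Zfp36l1 probe set was not called in either genotype. Of the 9 inducing cytokines 2 were lower with HFD in Alb::GC and 4 in wildtype, none higher in either, against 2.13% and 6.63% lower over all probe sets. Il1a was lower in Alb::GC (-2.22 ± 0.37, adjusted p = 0.0288) and in wildtype (-1.5 ± 0.37, adjusted p = 0.0461), and so was Ifng (-1.35 ± 0.26, adjusted p = 0.0379, in Alb::GC and -1.61 ± 0.26, adjusted p = 0.0171, in wildtype).

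Over the 8 diet arrays Cxcl1 ran most like Cd99l2 (r = 0.993), Phf21a (0.992) and Cd59a (0.992), none of which was among its 3 nearest with AP20187. Ccl9 was most like Apom (0.995), Cyp2c23 (0.992) and Ern1 (0.990), and Cxcl12 most like Ficd (0.995), Ebf2 (0.991) and Sys1 (0.991). These are descriptions over arrays that share the diet contrast.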

How the data were processed

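Per the labels, biotin-labelled cRNA from mouse liver was hybridised to single-sample expression arrays. The authors deposited a linear ratio around 1 per probe set, to 2 decimals. The sources used here do not give its denominator, the scanner or the summary method. No value was below 0.01. Replicates of a group correlated at 0.442 to 0.658, with 1.44% to 2.46% of values equal at 2 decimals, so none was treated as a duplicate. Groups came from the array descriptions. For LFD wildtype replicate 2 another field gives both genotypes, and for AP20187 replicate 4 it gives a single letter.

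The 64 control probe sets were left out. Symbols came from the platform annotation, which can be old. Of 22626 probe sets 20380 had 1 symbol, 691 several and 1555 none, and only those with 1 symbol were named. log2(ratio + 0.05) was fitted with limma 3.58.1 in R 4.3.3 (lmFit, eBayes with trend), per experiment, with Benjamini-Hochberg adjustment and a two-sided threshold of 0.05. Residual and prior degrees of freedom were 6 and 2.06 in the TTR::Fv2E-PERK fit, and 4 and 2.3 in the diet fit, whose 4 groups shared 1 spread. The fit was tested on simulated data with planted changes of 1 and 2 on the log2 scale. It recovered 35% and 62% of them for AP20187 against untreated. For HFD against LFD in wildtype it recovered 4% and 33%, and for Alb::GC against wildtype on HFD 7% and 39%. A change that was not called is therefore not shown to be absent. Alternatives were other offsets, scalings, a filter, other variance priors, 1 fit of all 16 arrays and leaving out each array.

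Every chemokine probe set was named. Of each other list the probe sets to name were up to 4 past the threshold with the smallest p, or 2 where none passed, of which the text gives a part, and the receptors and relatives of chemokines with results were added after values were seen, as were Camp, S100a8, S100a9, Pf4, Ppbp, Cd163 and further probe sets of named genes where the rule did not take them. The members and lists were chosen with earlier results of these data known. Promoters and neighbours came from RefSeq tables, read with Python 3.11.15 and aligned with Biopython 1.88. The NF-kappaB consensus was searched in its common 10-base form.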

Additional observations from a re-analysis of the deposited data

Results flagged for a closer look

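Cxcl12 at 1417574_at had a ratio of 0.87 in AP20187 replicate 2, apart from the other 3 AP20187 arrays, which all stood at 1. All 4 lay below the untreated arrays, so the direction did not rest on that array. Cxcl13 at 1448859_at had a ratio of 0.39 in untreated replicate 4, while the other 3 untreated arrays lay at 0.78 to 0.80. Without that array the Cxcl13 change was 0.48 (limma, adjusted p = 0.0133). These were the 2 cases in which 1 array stood far from the rest among 26 groups of 4 checked, and chance gives about 1 in 20.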

How the results depend on the processing

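Every chemokine call with AP20187 was kept under the 8 other settings (offsets of 0.01 and 0.2, quantile normalization, division by the array median, a mean ratio of at least 0.25, no trend, robust priors and all 16 arrays in 1 fit), with 7 probe sets higher and 4 lower in each. Leaving out arrays gave 5 to 7 higher, Cxcl13 being the gene lost, and 4 lower. The HFD counts in wildtype were 1 higher and 2 to 3 lower over these settings, Cxcl12 falling out under quantile normalization and robust priors, and 1 to 2 higher and 0 to 2 lower when an array was left out. In Alb::GC they were 1 higher and 0 to 1 lower, Cxcl12 at 1417574_at being called in the fit of 16 arrays and with no trend, and 0 to 1 higher and 0 lower when an array was left out. Averaged over genotypes they were 1 higher and 3 to 4 lower, and 1 to 2 higher and 2 to 3 lower without an array. Between genotypes on HFD the 16-array fit called both Ccl9 probe sets higher (adjusted p = 0.0105 and 0.00308) and Cxcl1 no longer lower (0.0723), and its difference of HFD changes called Ccl9 at 1417936_at (1.21, adjusted p = 0.0403). The Cxcl1 genotype call was also lost with an offset of 0.01 (0.0533), with no trend (0.058) and with robust priors (0.0743). On LFD all counts were 0. No called value changed sign, and the causes of the lost calls were not tested. Over all probe sets quantile normalization turned the AP20187 split to 3449 higher and 3473 lower, against 3107 and 4617, and HFD in wildtype to 1366 and 848, against 1804 and 1499. Division by the median gave 2062 and 1256 for HFD in wildtype. Scaling moved the median change of all probe sets by under 0.1. A left-out array in a group of 2 leaves 1, assumed to vary like the others. When an HFD array was left out, far fewer probe sets of the whole array were called with HFD in that genotype. Diet calls of genes outside the chemokines described here were not followed gene by gene through these fits, and may rest on single arrays. Detection limits could not be read from ratios. No paired analysis was possible because the groups share no replicate numbers in the labels.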
